A study of Mus musculus with 2 samples.

Results

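Resf1 (ENSMUSG00000032712) and Atf7ip (ENSMUSG00000030213) are 2 of the 31253 genes in the deposited mouse thymocyte count tables, taken by symbol. They were picked because transcripts of both stood higher in Treg-like cells of the mutant library, so their levels are given here as a description, with no test. RNA counts do not measure whether the proteins bind SETDB1. Thymocytes were enriched with beads against CD25, the interleukin-2 receptor alpha chain, and profiled with the 10x Genomics 3′ kit, which counts each captured transcript end as 1 unique molecular identifier (UMI). The mutant library, named cKO by the submitters, came from thymus of SETDBf/fCD4-Cre mice, in which Cre recombinase is driven by Cd4 regulatory sequences. The other library came from thymus of WT mice that underwent the same bead enrichment. The genotype label does not say which SETDB gene is flanked by loxP sites, and the age and number of mice behind each library are not given in the sources used here.

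ATF7IP binds SETDB1, a methyltransferase for lysine 9 of histone H3, keeps it stable in the nucleus and links it to partners such as MBD1. RESF1, the regulator of endogenous retroelement silencing, was found in mouse embryonic stem cells as a SETDB1-interacting protein that takes part in silencing proviruses. Both genes thus belong to the machinery that keeps retroelements and some genes silent. In the thymus, double-negative (DN) precursors become double-positive (DP) cells, are selected by their T-cell receptor and leave as mature T cells, and strong receptor signals can lead to Foxp3-positive regulatory T cells. Cd4-driven Cre acts mainly from the late DN or DP stage onwards.

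Both genes lie on the forward strand of chromosome 6 in the RefSeq annotation of GRCm38.p6, with 86 protein-coding genes between them. The sequence just upstream of each annotated start is shown because the members were high in the same cKO stages. Capitals mark matches to motifs searched on both strands.
Resf1 upstream, chr6:149309164-149309408: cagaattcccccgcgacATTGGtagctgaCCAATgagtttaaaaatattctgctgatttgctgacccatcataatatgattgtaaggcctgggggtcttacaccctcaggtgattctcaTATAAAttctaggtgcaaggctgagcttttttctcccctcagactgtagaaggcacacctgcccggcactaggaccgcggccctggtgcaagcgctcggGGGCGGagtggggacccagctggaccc
Atf7ip upstream, chr6:136518601-136518788: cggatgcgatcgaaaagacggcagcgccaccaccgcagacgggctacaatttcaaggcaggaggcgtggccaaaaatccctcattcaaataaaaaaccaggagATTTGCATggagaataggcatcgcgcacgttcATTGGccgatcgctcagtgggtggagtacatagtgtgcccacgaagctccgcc
The Resf1 stretch of 245 bases holds 8 CpG dinucleotides and has a GC content of 53.5%. It contains CCAAT on each strand (ATTGG is its reverse complement), GGGCGG, the GC box, and TATAAA. The Atf7ip stretch of 188 bases holds 15 CpG dinucleotides at a GC content of 54.8%. It contains CCAAT on the reverse strand and the octamer ATGCAAAT on the reverse strand, written ATTTGCAT above. No 2 of these matches overlap. TGACGTCA, the cyclic AMP response element, had no match in either promoter window. Among 32851 mouse promoter windows of 300 bases (250 before the start and 50 from it), 37.4% held CCAAT, 35.7% GGGCGG, 13.6% TATAAA, 1.79% TGACGTCA and 1.74% ATGCAAAT. The whole windows run past the printed stretches, and there GGGCGG was also found on the reverse strand of both genes and ATGCAAAT once more in the Atf7ip window. Both windows thus share CCAAT and GGGCGG, each found in more than 1 window in 3.

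After filtering, 7372 cKO cells with a median of 4653 UMIs and 6989 WT cells with a median of 7700 UMIs were kept, and 14 barcodes occurred in both libraries. Cells were placed in stages by marker UMIs, which took 93.2% of the cKO cells and 93.9% of the WT cells. DN cells had UMIs of at least 2 of 7 DN genes (such as Ptcra and Il2ra), and at most 1 UMI of Cd4, Cd8a and Cd8b1 together. Cycling cells held at least 4 of 12 proliferation genes and were split by Cd8a and Cd8b1. DP cells held Rag1 or Rag2 and Cd8a or Cd8b1 UMIs. Post-selection cells had Trac and at least 1 UMI of Cd5, Cd69, Itm2a or Ccr7 but no Rag UMI. Agonist cells had Trac and at least 3 of 11 genes of strong receptor signalling, such as Nr4a1 and Tnfrsf9. Foxp3-positive cells had at least 1 Foxp3 UMI, and B cells had at least 2 of 4 B-cell genes and fewer CD3 UMIs than B-cell UMIs. Each stage was pooled, and a level is the gene's UMIs scaled to 1000000 pooled UMIs of the stage (CPM). With 1 library per genotype there are no replicates, so intervals are 95% exact intervals of the counts that cover counting error only, and a difference between libraries cannot be told apart from a difference between genotypes.

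Other markers were read in the Foxp3-positive gate, which rests on Foxp3 alone. Foxp3-positive cells had a Foxp3 level of 360 CPM in cKO and 345 in WT. Il2ra, the CD25 gene, stood there at 311 CPM in cKO and 249 in WT, and Ikzf2, another regulatory T-cell gene, at 951 in cKO and 1237 in WT. Neither gene is particular to this gate. Il2ra was higher in DN cells, at 517 in cKO and 542 in WT, and Ikzf2 in agonist cells, at 1461 in cKO and 1400 in WT. Rag1 was low in Foxp3-positive cells, at 41.0 CPM in cKO and 26.6 in WT, and Cd79a had 13 UMIs in cKO and 2 in WT. Cycling cells with a Foxp3 UMI fall in this gate, and Mki67, a proliferation gene, stood there at 77.8 CPM in cKO and 120 in WT. Of 10 marker genes of other cell types (macrophage, plasmacytoid dendritic, red cell, epithelial, stromal and NK), the summed level in Foxp3-positive cells was 33.8 CPM in cKO and 33.3 in WT. Siglech, Hbb-bs, Hba-a1 and Klrb1c among them were at 0 there in both libraries.

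Setdb1 itself was detected at low levels in both libraries. In DP cells it stood at 30.0 CPM in cKO and 31.2 in WT (ratio 0.963, interval 0.797 to 1.17), and in Foxp3-positive cells at 25.4 in cKO and 20.7 in WT (1.22, 0.836 to 1.79). The other stages gave Setdb1 ratios of 0.964 in DN cells, 0.913 in cycling Cd8-negative and 0.847 in cycling Cd8-positive cells, 1.03 in post-selection cells, 0.768 in agonist cells and 1.15 in B cells. Setdb2 stood at 7.61 CPM in cKO Foxp3-positive cells and 7.77 in WT ones (0.98, 0.492 to 1.93). Its ratio was 0.934 in DN, 1.04 in cycling Cd8-negative, 0.942 in cycling Cd8-positive, 1.31 in DP, 2.09 in post-selection and 1.54 in B cells. In agonist cells Setdb2 had 8.89 CPM in cKO and 0.549 in WT, where it rests on 1 UMI, and the ratio of 16.2 had an interval of 2.51 to 679. Apart from Setdb1 in cycling Cd8-positive cells and Setdb2 in agonist cells, these intervals included 1. A tag at the transcript's 3′ end does not check a deletion elsewhere in a gene.

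Resf1 differed by less than 1.5-fold between the libraries up to the DP stage and several-fold after it. In DN cells it stood at 132 CPM in cKO (1848 UMIs, 1479 cells) and 104 in WT (2029 UMIs, 2040 cells), a ratio of 1.26 (1.18 to 1.34). Cycling Cd8-negative cells had 69.6 in cKO and 50.8 in WT (1.37, 1.27 to 1.47), and cycling Cd8-positive cells had 56.0 in cKO and 43.1 in WT (1.3, 1.18 to 1.43). DP cells had 204 in cKO (3062 cells) and 164 in WT (2077 cells), a ratio of 1.24 (1.15 to 1.34). Up to the DP stage the cKO library was thus the higher by less than 1.5-fold at every stage. The difference then widened. In post-selection cells Resf1 stood at 321 CPM in cKO (376 cells) and 109 in WT (269 cells), a ratio of 2.95 (2.44 to 3.58). Agonist cells had 407 in cKO (242 cells) and 103 in WT (222 cells), a ratio of 3.96 (3.37 to 4.67). In Foxp3-positive cells 1901 UMIs in 330 cKO cells gave 804 CPM, and 400 UMIs in 331 WT cells gave 148, a ratio of 5.43 (4.87 to 6.06). B cells, which lie outside the T lineage, had 124 in cKO (16 cells) and 135 in WT (36 cells), a ratio of 0.916 (0.51 to 1.6) that these few cells leave wide.

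Atf7ip followed another course, with no excess in cKO before the DP stage. It stood at 77.9 CPM in cKO DN cells and 93.4 in WT ones (0.834, 0.773 to 0.9). Cycling Cd8-negative cells had 47.4 in cKO and 51.7 in WT (0.918, 0.847 to 0.994), and cycling Cd8-positive cells had 51.5 in cKO and 50 in WT (1.03, 0.935 to 1.13). At the DP stage, where Resf1 differed little, Atf7ip stood at 289 CPM in cKO and 184 in WT, a ratio of 1.57 (1.46 to 1.68). With a stricter filter on cells (at least 1000 genes and 2500 UMIs, at most 5% mitochondrial UMIs) that ratio was 1.28. The Resf1 ratio in DP cells was 1.34 with that filter, so the contrast between the members at this stage depended on the filter. In the later stages the Atf7ip ratio was larger than in DP cells but did not climb further. Post-selection cells had 289 in cKO and 121 in WT (2.39, 1.98 to 2.89), agonist cells 203 in cKO and 82.4 in WT (2.46, 2.03 to 3.0), and Foxp3-positive cells 221 in cKO and 104 in WT (2.13, 1.84 to 2.47). B cells stood at 143 in cKO and 129 in WT (1.11, 0.632 to 1.89).

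**Figure D1:**
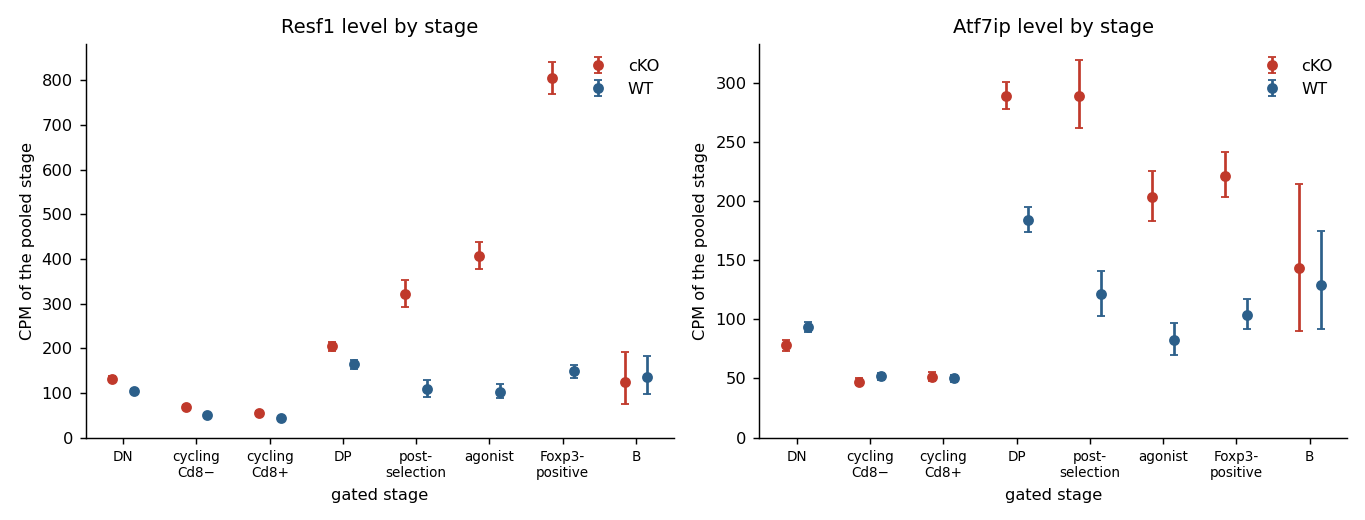
Level of Resf1 (left) and Atf7ip (right) in CPM of the pooled stage, by gated stage, with cKO in red to the left of WT in blue and bars for the exact 95% Poisson interval of the count. Resf1 reaches 804 CPM in cKO Foxp3-positive cells against 148 in WT, while Atf7ip is highest in DP and post-selection cells of cKO.

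The order of the stages differed between the genotypes for Resf1. In cKO it ran from Foxp3-positive cells through agonist, post-selection and DP cells to DN cells, each with an interval apart from the next. Levels in cKO DN and B cells overlapped, and both cycling stages were lowest. In WT the DP level of 164 came first, followed by Foxp3-positive (148), B (135), post-selection (109), DN (104) and agonist cells (103), and the interval of each of the first 5 overlapped that of the next. The cycling stages were lowest in WT too. For Atf7ip, DP cells came first in both libraries, with an interval that overlapped post-selection cells in cKO and B cells in WT, and the cycling stages were again lowest. The stages also differ in RNA content per cell, since cycling Cd8-positive cells had a median of 29745 UMIs in cKO and 32350 in WT and DP cells 2277.5 in cKO and 2503 in WT. The part of this difference in the order was not tested.

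Against all measured genes, with a fold taken as the ratio of levels after adding 5 CPM and a gene counted as measured from 20 UMIs in the 2 libraries together, neither member was 1.5-fold higher in DN or cycling cells. The share of all genes 1.5-fold higher was 0.376% in DN cells, 0.22% in cycling Cd8-negative and 0.136% in cycling Cd8-positive cells. Resf1 still ranked high there, at 188th of 11697 genes in DN, 70th of 11800 in cycling Cd8-negative and 108th of 11052 in cycling Cd8-positive cells. Atf7ip ranked 11009th, 9711th and 3735th in the same order. In DP cells Resf1 ranked 447th. In DP cells 1 member, Atf7ip, was past 1.5-fold, as were 0.536% of 10822 genes, and it ranked 43rd from the top. Both members were past it in post-selection cells, where 5.24% of 8341 genes were, with Resf1 7th and Atf7ip 19th. Both were past it in agonist cells too, where 3.23% of 8695 genes were, with Resf1 9th and Atf7ip 29th. In Foxp3-positive cells, with both members again past 1.5-fold against 2.63% of 9389 genes, Resf1 ranked 9th with a log2 fold of 2.40 and Atf7ip 54th with 1.05. Neither was past it in B cells, where 11.9% of 3517 genes were higher and 24.6% lower. Since both were chosen for being high in cKO Foxp3-positive cells, nothing follows from these ranks.

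Within the post-selection, agonist and Foxp3-positive stages, Resf1 in cKO was higher in cells with egress gene UMIs in each stage, and Atf7ip was so in agonist and Foxp3-positive cells. S1pr1 encodes the receptor for the exit signal sphingosine-1-phosphate, and Klf2 the factor that drives S1pr1. Cells were split at 2 UMIs of S1pr1 and Klf2 together. Of these stages only the post-selection gate leaves out cells with a Rag UMI. Rag1 in agonist cells was 48.7 CPM in cKO and 31.8 in WT below the split, and 9.62 and 15.5 above it. In Foxp3-positive cells Rag1 was 110 in cKO and 87.5 in WT below, and 29.6 and 8.63 above. Post-selection cells below the split had a Resf1 level of 165 CPM in cKO and 100 in WT (1.65, 1.27 to 2.15). Those with at least 2 had 675 in cKO and 130 in WT (5.2, 3.85 to 7.15). The WT intervals on both sides of the split overlapped, and the cKO intervals did not. Other-cell markers moved with these cells: the summed level of the 10 genes was 94.1 CPM in cKO and 33.1 in WT above the split, against 24.9 in cKO and 34.4 in WT below it. Above the split Lyz2, a myeloid gene, had 14 UMIs in cKO and 0 in WT, C1qa, a macrophage gene, had 8 in cKO and 0 in WT, and 6 of the 10 genes were at 0 in cKO and 8 in WT, among them Siglech, Hbb-bs, Hba-a1, Col3a1, Klrb1c and Ncr1 in both. Their part in the result was not tested. Post-selection cells below the split were also unlike between the libraries, with Ccr7 at 66.3 CPM in cKO and 223 in WT. Trac stood there at 1538 in cKO and 1031 in WT, and Itm2a at 730 in cKO and 529 in WT. The part of these differences in the Resf1 and Atf7ip ratios was not tested. Agonist cells below the split had 291 in cKO and 96.7 in WT (3.01, 2.31 to 3.95), and those above it 492 in cKO and 107 in WT (4.58, 3.72 to 5.68), so that the cKO levels lay apart while the intervals of the ratios overlapped. Foxp3-positive cells, most of them above the split, had 880 in cKO and 155 in WT there (5.67, 5.03 to 6.4). The 27 cKO and 63 WT Foxp3-positive cells below it had 346 in cKO and 123 in WT (2.81, 2.09 to 3.8). Atf7ip was 306 in cKO and 99.3 in WT (3.08, 2.14 to 4.53) in post-selection cells above the split, and 282 in cKO and 130 in WT (2.16, 1.74 to 2.7) below it. In agonist cells it was 232 in cKO and 97.6 in WT (2.37, 1.87 to 3.03) above, and 163 in cKO and 62.3 in WT (2.62, 1.87 to 3.72) below. The ratios overlapped in both of these stages, while in agonist cells the cKO levels (203 to 263 above, 136 to 194 below) lay apart. In Foxp3-positive cells Atf7ip stood at 242 in cKO and 104 in WT (2.33, 1.98 to 2.74) above the split, and at 94.8 in cKO and 104 in WT (0.913, 0.578 to 1.42) below it, from 32 cKO and 64 WT UMIs. These few cells with under 2 egress UMIs were also unlike between the libraries in other genes, with Foxp3 at 166 in cKO and 280 in WT, Ikzf2 at 462 in cKO and 1161 in WT, Trac at 225 in cKO and 603 in WT, and the proliferation gene Mki67 at 267 in cKO and 112 in WT. The part of this in their ratios was not tested. Above the split Mki67 went the other way in Foxp3-positive cells, at 46.4 in cKO and 123 in WT. Top2a, another proliferation gene, stood there at 99.7 in cKO and 196 in WT. The part of cycling cells in the ratios above the split was not tested.

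The DP stage was split by UMIs of Cd5, Cd69 and Itm2a, genes that positive selection turns up. DP cells with fewer than 2 of these UMIs had a Resf1 level of 207 CPM in cKO and 169 in WT (1.22, 1.12 to 1.32), and those with at least 2 had 186 in cKO and 124 in WT (1.5, 1.18 to 1.93). Atf7ip stood at 303 in cKO and 193 in WT (1.57, 1.46 to 1.69) in the first of these and at 208 in cKO and 122 in WT (1.70, 1.34 to 2.17) in the second. The Atf7ip difference was thus present in DP cells with few Cd5, Cd69 and Itm2a UMIs. These cells were not alike between the libraries. Ccr7, which the split leaves out, stood there at 19.5 CPM in cKO and 6.47 in WT, and Cd69 at 24.9 in cKO and 17.6 in WT. Cd5 stood at 30.6 in cKO and 29.3 in WT, and Itm2a was lower in cKO, at 13.5 against 16.4. The part of these differences in the ratios was not tested. For neither gene did the ratio differ between these DP cells beyond counting error.

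**Figure D2:**
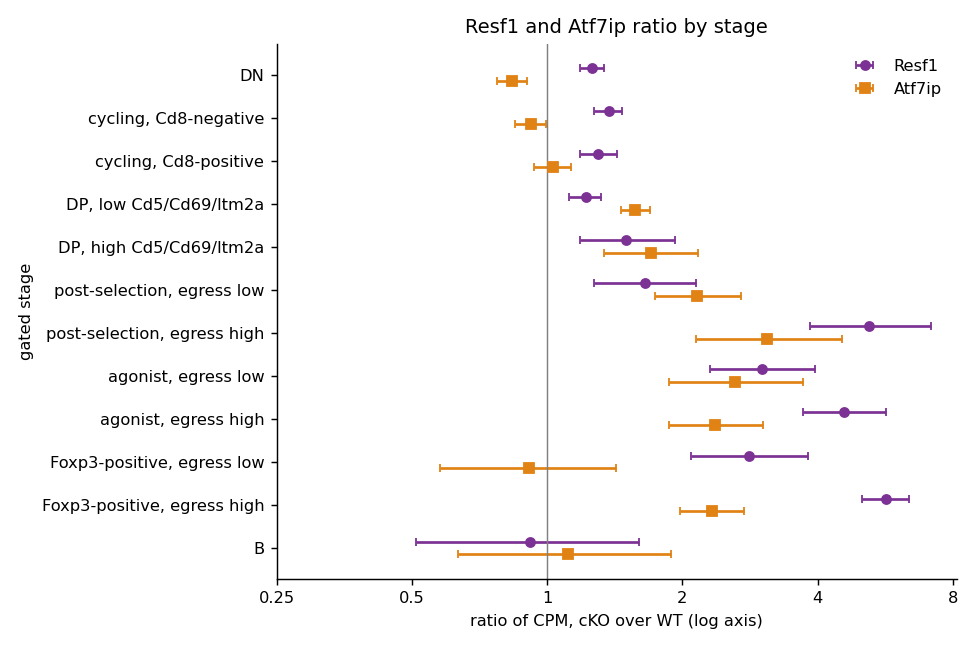
Ratio of CPM, cKO over WT, on a log axis for Resf1 (purple circles) and Atf7ip (orange squares) in each gated stage and its split by selection or egress genes, with exact 95% intervals of the counts. Atf7ip passes 1.5 already in DP cells at the main cell filter, while Resf1 is farthest to the right in cells with egress genes (5.2, 4.58 and 5.67).

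Egress UMIs were also counted in cells thinned to 2000 UMIs, so that the binning has equal depth, and levels were read over all UMIs of the binned cells, with post-selection, agonist and Foxp3-positive cells together. With 0, 1, 2 and at least 3 egress UMIs, Resf1 stood at 243, 623, 766 and 897 CPM in cKO and at 100, 116, 150 and 175 in WT. The ratio was 2.43 (2.11 to 2.8) at 0, 5.38 (4.29 to 6.81) at 1 and 5.13 (4.46 to 5.93) at 3 or more, so the first bin lay apart and the later ones overlapped. Resf1 was thus highest in the last bin in WT too. Atf7ip stood at 199, 192, 298 and 276 in cKO and at 91.5, 117, 106 and 106 in WT. Its ratio was 2.18 (1.87 to 2.53) at 0, 1.63 (1.26 to 2.14) at 1 and 2.81 (2.1 to 3.8) at 2. At 3 or more it was 2.61 (2.15 to 3.17), which overlaps the first bin and lies just above the interval at 1. Because Foxp3-positive cells fill much of the last bin, the stages were also read apart. Among post-selection cells without Foxp3 UMIs, Resf1 was 158 in cKO and 102 in WT at 0 egress UMIs (1.55, 1.18 to 2.03) and 978 in cKO and 148 in WT at 3 or more (6.62, 4.33 to 10.6). In agonist cells it was 237 in cKO and 95.9 in WT at 0 (2.48, 1.95 to 3.16) and 595 in cKO and 127 in WT at 3 or more (4.67, 3.3 to 6.77). The level of Resf1 in cKO post-selection cells with 3 or more egress UMIs was close to the 983 CPM of cKO Foxp3-positive cells in the same bin, where WT had 197. A Foxp3 count of 0 does not show that a cell lacks Foxp3 RNA. In post-selection cells with at least 2 unthinned egress UMIs, Ctla4 stood at 191 CPM in cKO and 132 in WT. With fewer it stood at 20.7 in cKO and 40.9 in WT. In Foxp3-positive cells Ctla4 stood at 300 in cKO and 279 in WT. How many of these post-selection cells were regulatory T cells was not tested. In Foxp3-positive cells without an egress UMI after thinning the Atf7ip ratio was 1.49 (1.07 to 2.06), and with 3 or more 2.26 (1.79 to 2.87). These ratios overlap, while the Atf7ip level in cKO was 129 CPM at 0 and 261 at 3 or more, and in WT 86.2 at 0 and 115 at 3 or more.

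**Figure D3:**
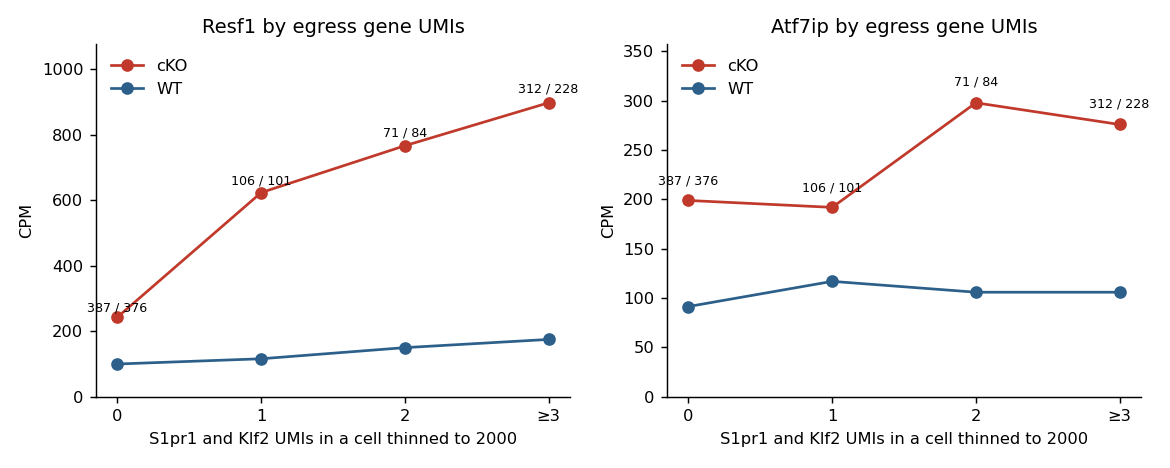
Resf1 (left) and Atf7ip (right) in CPM of post-selection, agonist and Foxp3-positive cells together, binned by S1pr1 and Klf2 UMIs in a cell thinned to 2000 UMIs (levels over all UMIs of the cells), with cKO in red, WT in blue and the numbers of cKO / WT cells above the points. In cKO Resf1 stands at 243 in the lowest bin and 897 in the highest, and in WT at 100 and 175.

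Shares of cells with a UMI gave the same picture as the levels. After thinning to 2000 UMIs, 68.8% of 324 cKO Foxp3-positive cells had a Resf1 UMI (63.5 to 73.8) and 28.6% of 322 WT ones did (23.7 to 33.8), and 6 cKO and 9 WT cells were too shallow. Without thinning the shares were 88.5% in cKO and 56.5% in WT. For Atf7ip they were 38.9% in cKO (33.5 to 44.4) and 18.0% in WT (14.0 to 22.7), and 73.6% in cKO and 47.7% in WT without thinning. In DP cells a thinned Resf1 UMI was found in 30.7% of cKO and 26.0% of WT cells, and an Atf7ip UMI in 42.3% of cKO and 29.1% of WT cells, with 986 cKO and 426 WT cells too shallow. Unthinned DP shares were 35.6% in cKO and 34.9% in WT for Resf1, and 48.2% in cKO and 38.6% in WT for Atf7ip. In DN cells Resf1 was in 21.4% of cKO and 18.0% of WT cells and Atf7ip in 14.0% of cKO and 17.0% of WT cells, all thinned.

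No gated stage is known to lack either gene, so the share that free RNA gives could not be read from a negative stage. The lowest thinned share among the stages of over 100 cells was, for Resf1, 9.69% in cKO and 7.54% in WT, in cycling Cd8-positive cells. For Atf7ip the lowest shares were 8.57% in cKO and 9.14% in WT, in cycling Cd8-negative cells, whose median depth was 24239.5 UMIs in cKO and 25532 in WT against 5308.5 in cKO and 5872 in WT for Foxp3-positive cells. Free RNA is a smaller part of such deep cells, so these shares set no limit for shallower stages. As another gauge, Gm19951, a gene model with UMIs in 23.5% of thinned cKO Foxp3-positive cells, was found in 0.203% of cKO DN cells and 0.0482% of cKO DP cells.

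Counts of Resf1 per cell had a long upper tail in cKO Foxp3-positive cells. After thinning, 31.2% of cKO cells and 71.4% of WT cells had no Resf1 UMI, while 7.72% of cKO cells and none of 322 WT cells (which allows up to 0.932%, taking 3 cells as the most a count of 0 hides) had 6 or more. The mean was 2.02 thinned Resf1 UMIs per cell in cKO and 0.41 in WT, and the variance 3.36 times the mean in cKO and 1.43 times in WT, where a value of 1 is what counting alone gives. This ratio grows with the mean. The variance beyond counting, divided by the squared mean, was 1.16 in cKO and 1.04 in WT, so relative to its mean Resf1 had a similar spread in both libraries. For Atf7ip, at a mean of 0.5 in cKO and 0.208 in WT, the variance was 1.03 times the mean in cKO and 1.12 times in WT, and no Foxp3-positive cell of either library had more than 3 thinned Atf7ip UMIs. In post-selection cells the variance of Resf1 beyond counting over the squared mean was 3.38 in cKO and 0.878 in WT, and in DP cells 0.926 in cKO and 0.548 in WT. In agonist cells it went the other way, at 2.3 in cKO and 3.28 in WT. In the Foxp3-positive cKO cell with the highest Resf1 share of its own UMIs, 38 of 2619 UMIs were Resf1. These were 2.0% of the stage's Resf1 UMIs, and without this cell the ratio was 5.33 (4.78 to 5.95). The 33 cKO cells with the most Resf1 UMIs, 10% of the stage, held 33.8% of its Resf1 UMIs. The top 10% of agonist cells by the same count held 53.8% and that of post-selection cells 65.5%. These shares are of unthinned UMIs, and counting alone raises such a share as the mean falls. The means were 5.76, 3.02 and 1.19 Resf1 UMIs per cell in that order, and no such share was read in WT.

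**Figure D4:**
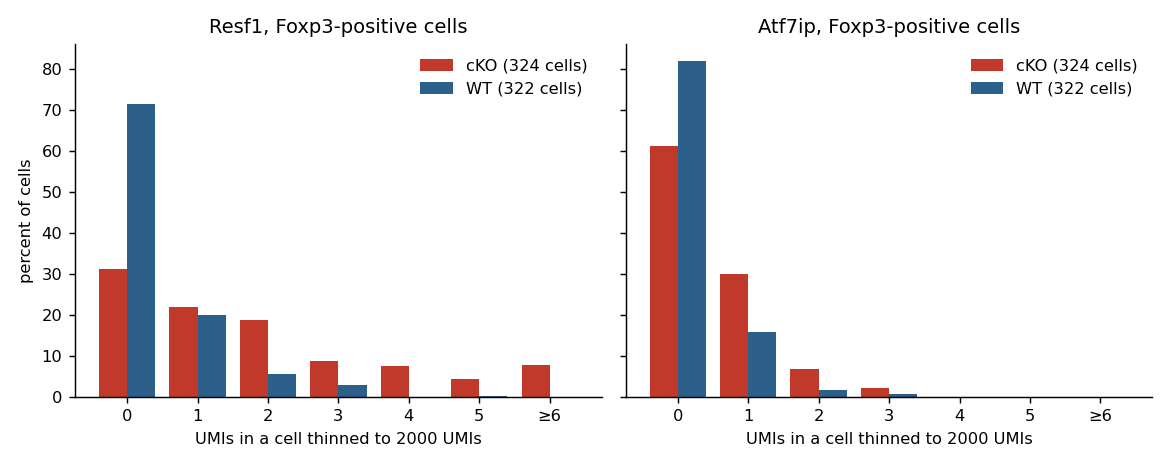
Percent of Foxp3-positive cells (324 cKO in red, 322 WT in blue) by UMIs of Resf1 (left) and Atf7ip (right) in a cell thinned to 2000 UMIs. The cKO cells reach 6 or more Resf1 UMIs in 7.72% of cells, while no cell of either library passes 3 Atf7ip UMIs.

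Per cell, the median Resf1 level in Foxp3-positive cells was 700 CPM in cKO and 88.4 in WT, and the 90th percentile was 2391 in cKO and 520 in WT. In agonist cells the median was 148 in cKO and 0 in WT, with a 90th percentile of 1318 in cKO and 359 in WT. In post-selection cells the median was 0 in both libraries, while the 90th percentile was 885 in cKO and 434 in WT. At a median depth near 3000 UMIs a median of 0 does not show that the lower part of the cells was alike: after thinning, 67.1% of cKO and 82.1% of WT post-selection cells had no Resf1 UMI.

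Cells of cKO were next divided by Gm19951 UMIs, a transcript all but missing from WT, which was at 0 in 322 thinned WT Foxp3-positive cells. The 76 cKO Foxp3-positive cells with a Gm19951 UMI had a Resf1 level of 1372 CPM (1268 to 1483), and the 248 without had 659 (623 to 697). Both values lie above the 148 of WT. Atf7ip stood at 303 (255 to 357) with Gm19951 and 201 (182 to 223) without. The Gm19951 split in part repeats the egress split: in post-selection cKO cells 86 Gm19951 UMIs lay in cells above the egress split and 2 below it. The contrast in Resf1 was wider in the other stages, at 1758 (1480 to 2073) with and 229 (203 to 258) without in post-selection cells, from 18 and 295 cells, and at 1115 (981 to 1262) with and 305 (278 to 334) without in agonist cells, from 32 and 207 cells. Atf7ip in post-selection cells was 411 (283 to 578) with and 280 (251 to 311) without. Cfap53, a cilium gene, marked only 13 thinned Foxp3-positive cKO cells, which had a Resf1 level of 1592 CPM (1362 to 1850), against 764 (728 to 801) in the 311 without. Their Atf7ip level of 272 (182 to 390) overlapped the 219 (200 to 240) of cells without Cfap53.

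The members' transcripts were also compared from cell to cell. Of cKO Foxp3-positive cells with a thinned Resf1 UMI, 42.2% had an Atf7ip UMI (35.6 to 48.9), and of those without, 31.7% did (22.8 to 41.7). Post-selection cells gave 45.6% with (35.8 to 55.7) and 42.4% without (35.6 to 49.4), and agonist cells 38% (28.1 to 48.8) and 32.0% (24.5 to 40.2). These intervals overlapped in each stage. Over all their UMIs, however, cKO Foxp3-positive cells with a thinned Resf1 UMI had an Atf7ip level of 264 CPM (238 to 292), and those without had 155 (131 to 183), with median depths of 5057 and 6496 UMIs. In agonist cells the Atf7ip level was 274 (234 to 320) with and 168 (145 to 193) without, at median depths of 5617 and 6863. In post-selection cells it was 290 (241 to 346) with and 287 (252 to 325) without. Atf7ip was thus higher in Resf1-bearing cells of the first pair of stages beyond counting error, and the part of depth in this was not tested.

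A list of 26 other genes of SETDB1 recruitment, the HUSH complex, heterochromatin and DNA methylation showed few differences of this size. In Foxp3-positive cells 25 were measured (Atf7ip2 had no UMI), 2 were 1.5-fold higher in cKO and 0 lower, beside 2.63% of all genes higher and 3.39% lower, and the list's median log2 fold was 0.02. Mbd1, the methyl-CpG binding protein that ATF7IP ties to SETDB1 in human cells, stood at 55.4 CPM in cKO and 21.5 in WT (2.58, 1.88 to 3.58). Tasor, the scaffold of HUSH, stood at 72.7 in cKO and 45.9 in WT (1.59, 1.25 to 2.01). The other HUSH genes were not past 1.5-fold after the added 5 CPM, with Mphosph8 at 69.4 in cKO and 79.2 in WT (0.876, 0.71 to 1.08), Morc2a, the HUSH effector, at 14.8 in cKO and 8.51 in WT (1.74, 0.999 to 3.08, a log2 fold of 0.55), and Pphln1 at 13.5 in cKO and 17.0 in WT (0.795, 0.49 to 1.28). Trim28, the corepressor that brings SETDB1 to KRAB zinc finger proteins, stood at 107 in cKO and 103 in WT (1.04, 0.877 to 1.24). Ube2e1, a ubiquitin-conjugating enzyme that acts on SETDB1 in human cells, had a ratio of 1.12 (0.918 to 1.36).

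Mbd1 was also higher in post-selection cells, at 58.3 in cKO and 22.7 in WT (2.57, 1.67 to 4.05), and in agonist cells, at 48.3 in cKO and 26.4 in WT (1.83, 1.27 to 2.67). Tasor stood at 77.7 in cKO and 46.9 in WT in post-selection cells (1.66, 1.2 to 2.3). In that stage 2 of 24 measured list genes were higher and 2 lower. The lower ones were Dnmt1, the maintenance DNA methyltransferase (38.1 in cKO and 59.7 in WT), and Uhrf1, which guides it (13.7 in cKO and 31.8 in WT). Of all genes in post-selection cells 5.24% were higher and 5.06% lower. Agonist cells had 1 of 24 list genes higher, Mbd1, and 0 lower, where 3.23% of all genes were higher and 2.9% lower. In DN, cycling and DP cells 0 of 25 measured list genes were past 1.5-fold either way, while Atf7ip was in DP cells. The share of all genes 1.5-fold lower was 0.479% in DN, 0.229% in cycling Cd8-negative, 0.208% in cycling Cd8-positive and 0.342% in DP cells. The share 1.5-fold higher was 0.376%, 0.22%, 0.136% and 0.536% in the same order.

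Genes beside the members were read in the order of the same annotation, which lists 2 protein-coding genes after Resf1. Of 17 neighbours, up to 5 on each side, 8 were measured in Foxp3-positive cells, and 2 were 1.5-fold higher and 1 lower, beside 2.63% of all genes higher and 3.39% lower. Both higher ones lie before Resf1. Etfbkmt, which encodes a methyltransferase of the electron transfer flavoprotein, is the second gene before it and stood at 45.3 CPM in cKO and 13.7 in WT (3.30, 2.25 to 4.94). Amn1, the next gene before Resf1, stood at 37.2 in cKO and 22.6 in WT (1.65, 1.18 to 2.32). Sinhcaf, also before Resf1, had a plain ratio of 1.5 (1.08 to 2.09) but a log2 fold of 0.5 after the added 5 CPM. On the other side Bicd1, a dynein adaptor gene, had 4 UMIs in cKO and 20 in WT (0.229, 0.0568 to 0.682). In DP cells, where the Resf1 ratio was 1.24, Etfbkmt stood at 7.86 in cKO and 5.04 in WT (1.56, 1.01 to 2.46) and Amn1 at 57.0 in cKO and 53.5 in WT (1.06, 0.925 to 1.23). Beside Atf7ip none of the measured neighbours was past 1.5-fold after the added 5 CPM. Without it H4f16, from 6 UMIs in cKO and 17 in WT, had a ratio of 0.403 (0.13 to 1.07). Emp1 had 1.52 (0.589 to 4.09). The next gene after Atf7ip, Plbd1, had 14 UMIs in cKO Foxp3-positive cells and 0 in WT, under the 20 needed. That is at least 5.33-fold higher if a WT stage without a UMI is taken to allow 3. The next gene before Atf7ip, E330021D16Rik, had 3 UMIs in cKO and 1 in WT (3.43, 0.275 to 180).

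**Figure D5:**
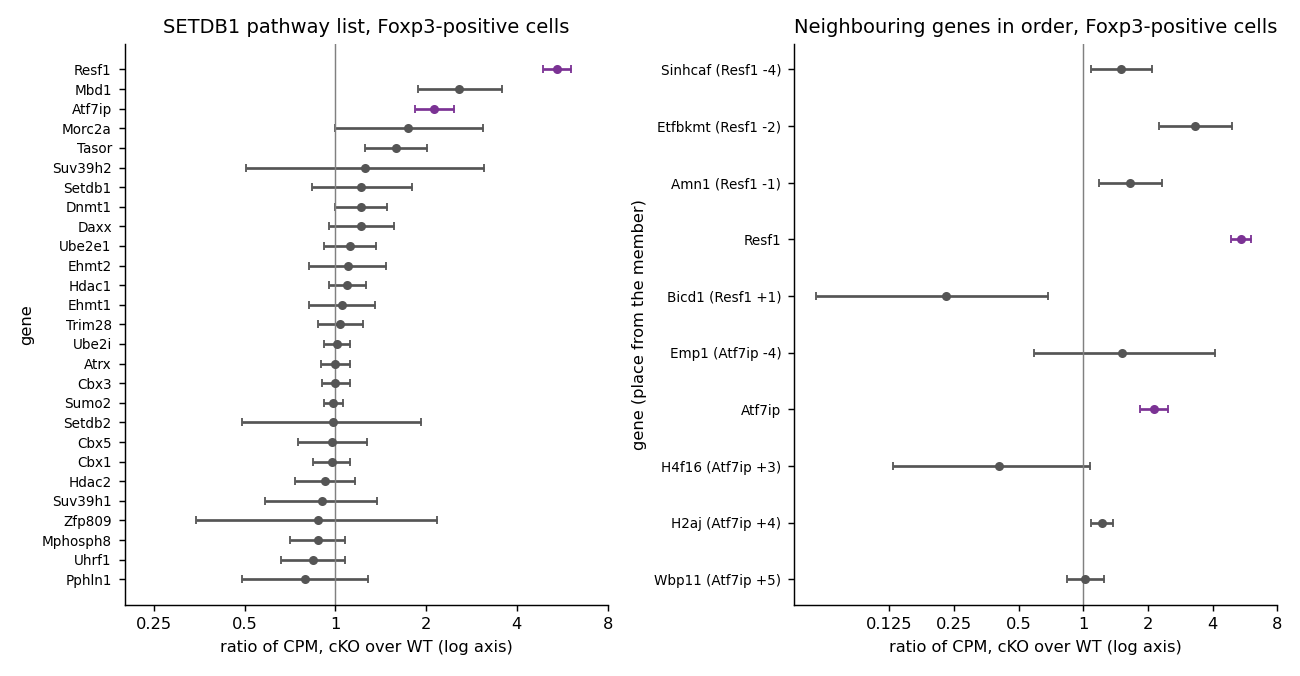
Ratio of CPM in Foxp3-positive cells, cKO over WT, on log axes with exact 95% intervals of the counts, for Resf1, Atf7ip (both purple) and the measured genes of the SETDB1 list (left) and for the measured neighbouring genes with their place from each member (right). Resf1 at 5.43 lies to the right of every list gene, with Mbd1 at 2.58 next.

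The genes whose levels ran most like each member over 14 points, 7 stages in each library, were compared among 9750 genes with at least 200 UMIs in each library. Points share a library and cell depth, so the correlations (Pearson's r of log2 levels) are descriptions. For Resf1 they were Zfp53, a zinc finger gene (0.947), Arrb1, which encodes beta-arrestin (0.941), Morc3, a MORC family ATPase gene (0.919), Ubxn11 (0.918) and Micu2, a regulator of mitochondrial calcium uptake (0.898). For Atf7ip they were the zinc exporter gene Slc30a1 (0.966), the TIF1 family gene Trim24 (0.962), Trp53bp2 (0.96), Dop1b (0.952) and the phosphatase gene Ppm1a (0.951). Without Foxp3-positive cells these values lay between 0.878 and 0.982. A high r did not mean a like difference between the libraries. In Foxp3-positive cells the genes named for Resf1 had ratios of 1.72, 1.33, 1.56, 2.16 and 1.22 in that order, against 5.43. Those named for Atf7ip had 1.85, 2.83, 1.64, 1.49 and 1.34, against 2.13. The intervals of Arrb1, Micu2, Slc30a1 and Dop1b included 1. Arrb1 and Slc30a1 were also low, each at 8.88 CPM in cKO Foxp3-positive cells. Atf7ip ranked 27th in likeness to Resf1, at 0.863.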

How the data were processed

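Each library was deposited as a matrix of UMI counts per gene and cell barcode; per the submitters' processing notes CASAVA 1.8, Cell Ranger 6.1.1 and Seurat 4.0.3 were used, and no source used here names the reference build. The kit was version 3.1 per the labels' protocols. The deposited counts hold 8461 cKO barcodes with 76668166 UMIs and 7852 WT barcodes with 89370968. Cells with at least 500 genes, 1000 UMIs and at most 10% mitochondrial UMIs were kept. Doublets were called with Scrublet in scanpy 1.11.5 at a score of 0.29, the automatic threshold of WT (that of cKO, 0.638, called 1 cell), which removed 129 cKO and 148 WT cells. The first stage that took a cell was kept, in the order B, Foxp3-positive, cycling, agonist, DP, post-selection and DN, with gate limits set after marker counts were seen. Levels have exact Poisson intervals, ratios exact binomial and shares exact Clopper-Pearson intervals (scipy 1.17.1). The calculation of folds over all genes was checked on simulated counts.

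Members and lists were chosen with earlier results of these data known. Named were both members, Setdb1 and Setdb2 in every stage, list genes and neighbours past 1.5-fold with at least 20 UMIs in Foxp3-positive cells, adjacent genes, the 5 most like genes of each member, and Cfap53 and Gm19951; other list genes were named after their values were seen. Sequences are RefSeq's, GRCm38.p6, and both members matched. The egress split uses S1pr1 and Klf2 alone, a list shortened after the data were seen, and 1 further gene is not reported here.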

Additional observations from a re-analysis of the deposited data

Results flagged for a closer look

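Atf7ip ran the other way in the earliest cells. Its ratio of cKO over WT was 0.834 in DN cells and 0.918 in cycling Cd8-negative cells, while it was above 1 in DP, post-selection, agonist and Foxp3-positive cells, each with an interval that left 1 out. In cycling Cd8-negative cells its log2 fold of -0.11 was close to the SETDB1 list's median of -0.09 (all genes -0.02). In DN cells it was -0.25, beside -0.07 for the list and -0.03 for all genes. The difference between stages was not tested, since there is 1 library per genotype.

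Cells that no gate took, 499 in cKO and 423 in WT, were in no comparison of stages. Resf1 stood there at 94.3 CPM in cKO and 54.1 in WT, a ratio of 1.74 (1.53 to 1.98), and Atf7ip at 73.1 in cKO and 58.4 in WT, a ratio of 1.25 (1.1 to 1.43). The 10 marker genes of other cell types summed to 271 CPM in cKO and 70.6 in WT there, and their part in the result was not tested.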

How the results depend on the processing

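Each ratio was recomputed under 9 or 10 alternatives, and none turned a ratio round that lay past 1.5-fold. Resf1 in Foxp3-positive cells ranged from 5.11 to 6.61 and Atf7ip from 2.07 to 2.32. With the stricter cell filter Resf1 was 1.14 in DN and 1.34 in DP cells, and Atf7ip 1.28 in DP, 2.89 in post-selection and 0.588 in B cells. With gates read on cells thinned to 2000 UMIs Resf1 was 1.38 in DN, 1.43 in cycling Cd8-positive, 1.37 in DP, 3.03 in agonist and 6.61 in Foxp3-positive cells, and Atf7ip 1.21 in cycling Cd8-positive cells. As a mean of per-cell levels Resf1 was 1.43 in cycling Cd8-positive and 0.499 in B cells. In cells of middle depth Resf1 was 1.14 in cycling Cd8-positive, 3.58 in post-selection, 3.16 in agonist and 0.496 in B cells, and Atf7ip 0.263 in B cells. Atf7ip was 0.56 in B cells gated by 3 UMIs of any B marker, an alternative chosen after seeing the data, as was raising each gate limit by 1. Keeping doublets, the looser filter, both other scalings, at least 2 Foxp3 UMIs and the raised limits moved no member beyond its interval. The cause of these shifts was not tested.

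Shares follow depth. In Foxp3-positive cells Resf1 was in 63.1% of cKO and 21.9% of WT cells at 1500 UMIs, 79.5% of cKO and 35.5% of WT cells at 3000, and 88.5% of cKO and 56.5% of WT cells unthinned. Atf7ip was in 31.4% of cKO cells at 1500 UMIs, in 53.4% of cKO and 28.6% of WT cells at 3000, and in 73.6% of cKO and 47.7% of WT cells unthinned. In Foxp3-positive cells 5.22% of all genes were higher and 6.67% lower with a pseudocount of 1, and 1.42% higher and 2.03% lower from 100 UMIs. In DP cells a pseudocount of 1 gave 2.26% higher and 2.0% lower. No paired analysis was possible because each genotype has 1 library.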
